A study of Homo sapiens with 8 samples.

Results

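Natural antisense RNAs were read beside their sense genes in LX2 cells, a human hepatic stellate cell line, and in HepG2 cells, a human hepatocellular carcinoma line, with and without CM272. CM272 inhibits both G9a, the histone methyltransferase encoded by EHMT2, and DNMT1, the maintenance DNA methyltransferase. Members were the gene symbols that end in -AS or -AS plus a number and do not start with LINC, chosen by their log2 level, which had to exceed 4 on the 2 arrays of 1 or more groups. A symbol with several probe sets was read from the one with the highest mean. Of 489 antisense symbols on the array 326 were bright enough, among 12239 bright genes of 14884 symbols. Of the sense genes named before the hyphen 216 were annotated on the array and 199 were bright enough, which gave 201 antisense and sense pairs. The levels that chose the members are given as a description, with no test of brightness.

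An antisense RNA is transcribed from the strand opposite to another gene, its sense gene, and often overlaps it or starts near its promoter. Some antisense RNAs act on their own locus through chromatin or by transcription across the sense promoter, others act elsewhere, and for many no role is known. Most are rarer than messenger RNAs. DNA methylation and the histone mark written by G9a are both linked to the silencing of noncoding transcription units and repeats.

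Total RNA was hybridised to Affymetrix whole-transcript arrays, 1 array per sample and 2 arrays in each of the 4 groups. The groups were LX2 with CM272 at 400 nM for 48 h, LX2 control with 0.1% DMSO for 48 h, HepG2 with CM272 at the same dose and time, and HepG2 control with the same vehicle. All groups were seeded at 200000 cells per well and kept in medium with penicillin and streptomycin. HepG2 had 10% serum and LX2 had 2%, so line and serum cannot be told apart. Each line is a single established line, and nothing in the labels shows that replicate arrays stem from separate cultures. The p-values therefore reflect the scatter of these arrays, which may be technical. The labels state that the labelled target was sense-strand cDNA, which keeps the strand of the RNA.

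Values are log2 RMA levels, so a difference of 1 is a 2-fold difference, and levels are not compared between probe sets. A change is the CM272 mean minus the control mean, with the standard error (SE) of limma's fit over all 8 arrays. A gene passed the test when its limma p, adjusted by Benjamini and Hochberg's method over all 12239 genes, was under 0.05. Array medians ran from 4.19 to 4.54, and LX2 CM272 replicate 1 had the highest. Over the 326 members the 2 arrays of a group correlated at r = 0.919 in LX2 CM272, 0.965 in LX2 control, 0.960 in HepG2 CM272 and 0.969 in HepG2 control, where genes are not independent replicates. All 11 measured hepatocyte markers were bright in HepG2 control, against 3 in LX2 control. ALB averaged 13.24 in HepG2 control and 3.59 in LX2 control, while VIM averaged 3.67 in HepG2 control and 10.19 in LX2 control. LUM and DCN, a pair of stellate matrix genes, were below 4 in both lines.

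The start regions of 5 genes are shown before the values. HECTD2-AS1 and CFLAR-AS1 rose steeply in LX2 with CM272, PAXBP1-AS1 also changed differently in the 2 lines, BCL10 is the sense gene of the only pair in which both partners passed in LX2, and BCAR3-AS1 had the largest excess in HepG2. Each window holds 250 bases before the RefSeq start and 50 bases after it (GRCh38.p14), and the CG dinucleotide, the main site of DNA methylation, is in capitals.
HECTD2-AS1, chr10:91611411-91611710, minus strand: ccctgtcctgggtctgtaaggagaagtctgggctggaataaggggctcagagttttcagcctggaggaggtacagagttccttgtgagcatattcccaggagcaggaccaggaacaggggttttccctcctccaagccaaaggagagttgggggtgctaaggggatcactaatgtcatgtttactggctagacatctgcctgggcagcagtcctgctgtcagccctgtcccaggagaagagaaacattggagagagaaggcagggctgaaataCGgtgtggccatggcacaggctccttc
CFLAR-AS1, chr2:201157743-201158042, minus strand: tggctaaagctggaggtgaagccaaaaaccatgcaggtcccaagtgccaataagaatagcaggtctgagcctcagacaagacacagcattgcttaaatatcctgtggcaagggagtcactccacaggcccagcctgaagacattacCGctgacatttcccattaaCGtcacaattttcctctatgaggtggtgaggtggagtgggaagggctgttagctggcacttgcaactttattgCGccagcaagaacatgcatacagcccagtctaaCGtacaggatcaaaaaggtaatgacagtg
PAXBP1-AS1, chr21:32727864-32728163, plus strand: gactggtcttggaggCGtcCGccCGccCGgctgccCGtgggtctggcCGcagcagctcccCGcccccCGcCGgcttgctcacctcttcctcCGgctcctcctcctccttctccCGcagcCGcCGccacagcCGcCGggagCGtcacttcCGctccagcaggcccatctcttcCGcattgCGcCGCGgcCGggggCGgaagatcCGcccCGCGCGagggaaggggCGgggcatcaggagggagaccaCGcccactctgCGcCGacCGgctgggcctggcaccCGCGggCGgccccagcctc
BCL10, chr1:85276583-85276882, minus strand: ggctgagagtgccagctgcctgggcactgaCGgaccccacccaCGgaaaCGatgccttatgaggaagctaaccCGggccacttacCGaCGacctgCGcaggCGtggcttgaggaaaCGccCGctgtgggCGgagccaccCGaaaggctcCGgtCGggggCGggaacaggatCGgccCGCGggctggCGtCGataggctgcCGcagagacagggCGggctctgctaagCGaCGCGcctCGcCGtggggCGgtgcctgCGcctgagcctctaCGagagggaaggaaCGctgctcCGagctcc
BCAR3-AS1, chr1:93591718-93592017, plus strand: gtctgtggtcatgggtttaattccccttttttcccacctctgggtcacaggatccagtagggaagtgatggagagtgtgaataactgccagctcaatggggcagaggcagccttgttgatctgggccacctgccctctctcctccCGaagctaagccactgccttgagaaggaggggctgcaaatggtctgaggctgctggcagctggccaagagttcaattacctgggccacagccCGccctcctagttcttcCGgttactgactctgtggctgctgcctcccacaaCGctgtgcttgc

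The windows differed widely in CG dinucleotides. HECTD2-AS1 had 1, CFLAR-AS1 and BCAR3-AS1 had 4 each, BCL10 had 32 and PAXBP1-AS1 had 35. CG reads the same on both strands and cannot overlap itself, and 96.0% of the 35116 RefSeq start windows of this length held at least 1. Across the 27305 genes with a window the median was 14, with quartiles of 4 and 27. A CG count describes these letters only, since methylation was not measured. RefSeq placed both starts of 217 antisense and sense pairs, and all 217 lay on opposite strands. Counting gene records as well, 295 pairs could be placed, and the gene bodies overlapped in 249 of them. Where 1 partner had no window, its strand was assumed to be the opposite one.

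The rule's brightness threshold fell among RNAs of similar level. Just inside it lay HS6ST2-AS1 with 4.0 and 4.24 in LX2 CM272, OBI1-AS1 with 4.03 and 4.19 in HepG2 control, and LINGO1-AS1 with 4.06 and 4.04 in LX2 control. Just outside lay BAALC-AS2 with 4.05 and 3.98 in LX2 CM272, FZD10-AS1 with 4.11 and 3.98 in LX2 control, and JAZF1-AS1 with 4.07 and 3.99 in LX2 control. Of the 326 members 202 were bright in all 4 groups, 46 only in both LX2 groups, 14 only in both HepG2 groups and 13 only in LX2 CM272. For a member bright only where it is high, the choice itself favours a difference between groups. The CM272 counts below therefore also name how many came in that way. The counts between the control groups are given again for members bright in all 4 groups. The number of bright members was 284 in LX2 CM272 and 280 in LX2 control, and it was 248 in HepG2 CM272 and 238 in HepG2 control. Over the members the median group level was 4.90 in LX2 CM272, 4.82 in LX2 control, 4.72 in HepG2 CM272 and 4.67 in HepG2 control.

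What joint inhibition of G9a and DNMT1 does to antisense RNAs of stellate cells was addressed by LX2 CM272 against LX2 control. Of the 326 antisense RNAs 21 rose and 3 fell, by factors of up to 4.04. SLC7A11-AS1, HECTD2-AS1 and CFLAR-AS1 rose most, and LOXL1-AS1, RGMB-AS1 and FRMD6-AS1 fell. Across all genes 8.42% passed the test, 3.79% as higher and 4.63% as lower, against 6.44% higher and 0.92% lower among the antisense RNAs. The median change was 0.09 over the antisense RNAs and -0.02 over all genes tested. A positive change was seen in 200 of 326 antisense RNAs (61.3%) and in 47.5% of all genes. At an unadjusted limma p under 0.05, 58 antisense RNAs were higher and 22 lower, beside 1282 higher and 1816 lower of all 12239 genes. In these bulk samples fewer cells with an RNA and less of it per cell cannot be told apart.

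SLC7A11-AS1, named for the cystine transporter subunit SLC7A11, had 5.26 and 5.87 in LX2 CM272, against 3.59 and 3.52 in LX2 control. The HepG2 arrays lay between 3.68 and 3.92, so only the LX2 CM272 arrays were above 4. It rose by 2.01 (SE 0.19, limma adjusted p = 0.000849), and SLC7A11 itself had no annotated probe set. HECTD2-AS1, at the locus of a HECT-type ubiquitin ligase gene, had 5.23 and 5.64 in LX2 CM272, against 3.47 and 4.05 in LX2 control, and rose by 1.68 (SE 0.21, limma adjusted p = 0.00352). Its sense gene HECTD2 had 5.92 and 6.03 in LX2 CM272, against 6.25 and 6.33 in LX2 control, a change of -0.32 (SE 0.16) that did not pass (limma adjusted p = 0.239). Both RNAs were members only through LX2 CM272, the group where they were high, and their control values sat near or under the threshold, so their folds are not exact. With no brightness filter they still passed, with limma adjusted p = 0.00157 for SLC7A11-AS1 and 0.00623 for HECTD2-AS1.

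CFLAR-AS1 was already bright in LX2 control. It had 6.25 and 6.91 in LX2 CM272, against 5.11 and 5.21 in LX2 control, and rose by 1.43 (SE 0.25, limma adjusted p = 0.0120). CFLAR, which encodes the caspase-8 inhibitor c-FLIP, had 6.87 and 6.98 in LX2 CM272, against 6.93 and 7.01 in LX2 control, so its groups overlapped (change -0.05, SE 0.15). RPL26L1-AS1 had 5.51 and 5.63 in LX2 CM272, against 4.66 and 4.18 in LX2 control, and rose by 1.16 (SE 0.20). RPL26L1, a ribosomal protein gene, changed by 0.05 (SE 0.19), with 6.57 and 6.01 in LX2 CM272 on both sides of 6.25 and 6.23 in LX2 control. With the mean of all its probe sets in place of the brightest, RPL26L1-AS1 changed by 0.54 and did not pass (limma adjusted p = 0.111).

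The other 8 of the 12 largest rises ran from 0.86 to 1.04. PARD6G-AS1, at a cell polarity gene, had 6.71 and 6.45 in LX2 CM272, against 5.72 and 5.54 in LX2 control, and rose by 0.95 (SE 0.18). PAXBP1-AS1, at the gene of a PAX-binding protein, had 5.31 and 5.47 in LX2 CM272, against 4.38 and 4.50 in LX2 control, and rose by 0.95 (SE 0.16). MZF1-AS1, at a zinc finger factor gene, had 5.90 and 6.13 in LX2 CM272, against 5.15 and 5.16 in LX2 control, and rose by 0.86 (SE 0.15). In these 3 the arrays of a group lay closer to each other than to the other group. RASAL2-AS1, at a Ras GTPase-activating protein gene, had 5.18 and 5.59 in LX2 CM272, against 4.60 and 4.37 in LX2 control, and rose by 0.90 (SE 0.17). Its sense gene RASAL2 stayed between 7.87 and 8.02 on all 4 LX2 arrays.

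CPB2-AS1 had 4.55 and 4.84 in LX2 CM272, against 3.75 and 3.57 in LX2 control, and rose by 1.04 (SE 0.18). CPB2, a plasma carboxypeptidase made by hepatocytes, stayed under 4 on all LX2 arrays (2.95 to 3.11), while HepG2 control had 7.25 and 7.88. SPATA3-AS1 had 3.52 and 3.95 in LX2 CM272, against 2.76 and 2.69 in LX2 control, a rise of 1.01 (SE 0.17) that took place wholly under the threshold, as it was a member through HepG2 CM272. PSG8-AS1 had 4.84 and 5.55 in LX2 CM272, against 4.27 and 4.11 in LX2 control, and rose by 1.0 (SE 0.25). DLG5-AS1, at a scaffold gene of cell polarity, had 4.70 and 5.02 in LX2 CM272, against 4.25 and 3.47 in LX2 control, and rose by 1.0 (SE 0.24). The last 2 had widely spaced arrays in 1 group, and each passed in only 6 of 18 alternative settings. A further 9 antisense RNAs rose by 0.59 to 0.83. The 21 limma adjusted p-values lay between 0.000849 and 0.0490.

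Among the falls, LOXL1-AS1 had 6.26 and 6.18 in LX2 CM272, against 6.99 and 7.03 in LX2 control, and fell by 0.79 (SE 0.14, limma adjusted p = 0.0117). LOXL1, a lysyl oxidase that cross-links elastin, had 7.60 and 7.44 in LX2 CM272, against 7.72 and 7.78 in LX2 control, a change of -0.23 (SE 0.17) that did not pass. RGMB-AS1, at the gene of a BMP co-receptor, had 5.01 and 5.0 in LX2 CM272, against 5.76 and 5.69 in LX2 control, and fell by 0.72 (SE 0.14). FRMD6-AS1, at a gene of the Hippo pathway, had 5.42 and 5.22 in LX2 CM272, against 5.89 and 6.14 in LX2 control, and fell by 0.69 (SE 0.15). FRMD6 changed by -0.18 (SE 0.14) without passing. All 3 were bright in LX2 control, and the CM272 arrays of each lay below both control arrays.

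**Figure D1:**
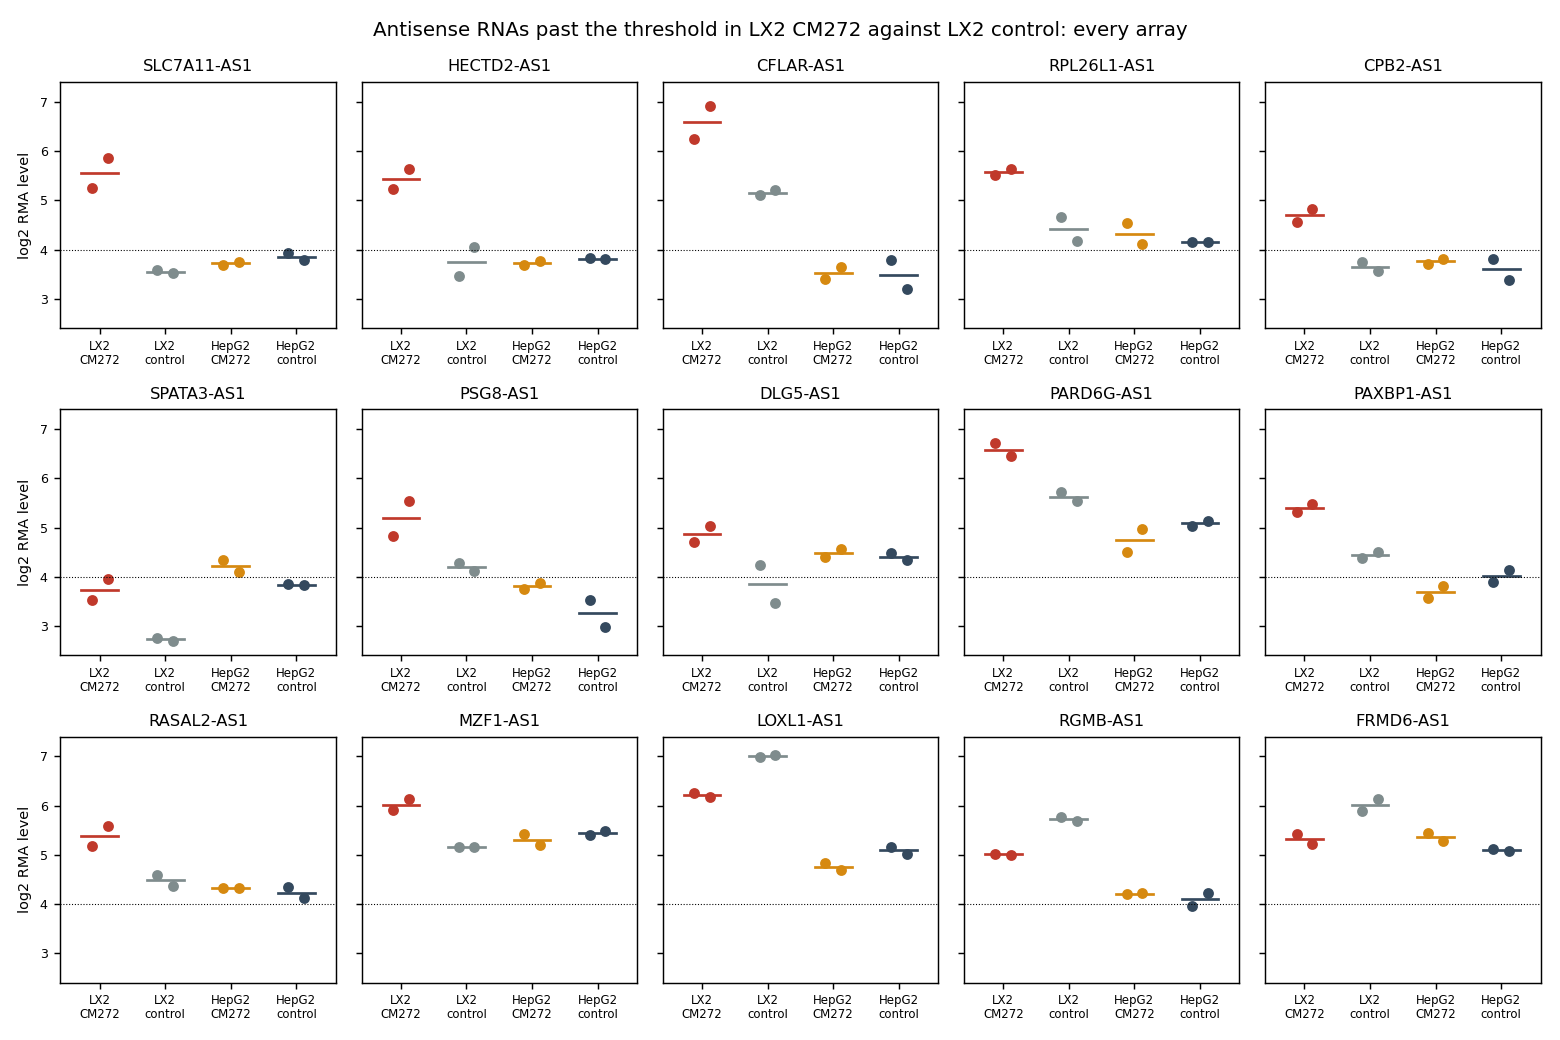
Log2 RMA level (y axis) of the 12 antisense RNAs that rose most and the 3 that fell in LX2 CM272 against LX2 control, on each of the 8 arrays (points) with group means (bars), groups along the x axis and the brightness threshold of 4 dotted. SLC7A11-AS1 and HECTD2-AS1 lie above 4 on the LX2 CM272 arrays, while their HepG2 arrays lie under 4.

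In all 21 rises both CM272 arrays lay above both control arrays, and in 18 of them the higher CM272 array was replicate 2, although replicate 1 had the higher array median. Of the 21 rises 14 were bright in LX2 control, and 4 were bright only in LX2 CM272. Among the 280 antisense RNAs bright in LX2 control 14 rose and 3 fell, beside 3.31% higher and 4.95% lower of the 11360 genes bright there. Among the 202 bright in all 4 groups 8 rose and 2 fell, beside 2.97% higher and 5.05% lower of the 9664 genes bright in all 4 groups. The median change was 0.08 over these 202 and -0.04 over these 9664. The count depended on single arrays. Without either LX2 control array fewer antisense RNAs rose or fell, and the counts over all genes shrank as well. Fewer antisense RNAs and fewer of all genes also rose without any 1 of the HepG2 arrays. Those arrays share the estimate of the spread but do not enter the LX2 change. Without LX2 CM272 replicate 2 the counts grew, over the antisense RNAs and over all genes. With LX2 fitted alone 7 rises and 0 falls remained past the threshold, and all 24 calls kept their sign in every alternative that gave them a value.

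The median change over all genes was higher in dim than in bright genes in LX2 CM272. Among genes with a mean over the 8 arrays of 4 to 5, 7.45% of 161 antisense RNAs and 4.48% of all 2946 genes were higher, with median changes of 0.08 and 0.07. Between 5 and 6, 3.26% of 92 antisense RNAs and 3.62% of 2903 genes were higher, with medians of 0.08 and 0.01. Above 6, where all genes had a median of -0.10, the 33 antisense RNAs had a median of 0.04. There 2 of them (6.06%) were higher, beside 3.06% of all 5748 genes. At a mean of 4 or below, 10% of 40 antisense RNAs and 7.94% of 642 genes were higher, with medians of 0.17 and 0.07. The part of low brightness in the count of rises was not tested. Other noncoding classes did not all move as the antisense RNAs did. Of 244 LINC RNAs 11 rose (4.51%) and 6 fell (2.46%), with a median change of 0.03. Of 85 divergent transcripts (symbols ending in -DT) 1 rose (1.18%) and 3 fell (3.53%), with a median of -0.04. Of 19 intronic transcripts (symbols ending in -IT) 1 rose and 3 fell, with a median of -0.05.

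The largest changes that missed the test in LX2 are given as values. STXBP5-AS1 had 4.51 and 5.04 in LX2 CM272, against 3.73 and 4.27 in LX2 control (change 0.77, SE 0.23, limma adjusted p = 0.0684). KMT2E-AS1 had 6.79 and 6.17 in LX2 CM272, against 5.73 and 5.71 in LX2 control (change 0.76, limma adjusted p = 0.0521). TRHDE-AS1 changed by 0.66, NUTM2A-AS1 by -0.64, DCST1-AS1 by -0.59 and PCGF3-AS1 by -0.56. STXBP5-AS1 and KMT2E-AS1 passed when the replicate number was kept as a block, with limma adjusted p = 0.0276 and 0.0347.

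Whether the sense genes moved with their antisense RNAs was read from the same LX2 comparison. Among the 199 sense genes tested 4 rose and 13 fell, a share of 8.54% beside 8.42% of all genes. By direction 2.01% rose and 6.53% fell, beside 3.79% and 4.63% of all genes. The sense genes had a median level of 6.28. Of all genes with a mean over 6, 3.06% were higher and 6.98% lower. Of the 14 rising antisense RNAs with a tested sense gene, 0 had a sense gene that rose and 1 had a sense gene that fell, and the 14 sense changes ran from -0.70 to 0.45. Across the 201 pairs the changes of the partners had a Pearson r of 0.01 and a Spearman rho of 0.05. The pairs share the same 8 arrays, and a gene can be in more than 1 pair, so these are descriptions. The signs matched in 95 of 201 pairs.

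BCL10 was the only sense gene that passed together with its antisense RNA. BCL10-AS1 had 4.78 and 5.10 in LX2 CM272, against 4.03 and 4.37 in LX2 control, and rose by 0.74 (SE 0.20, limma adjusted p = 0.0490). BCL10, an adaptor that carries receptor signals to NF-kB, had 7.88 and 7.82 in LX2 CM272, against 8.47 and 8.63 in LX2 control, and fell by 0.70 (SE 0.13, limma adjusted p = 0.0173). The RNAs thus moved in opposite directions, with no overlap between groups for either partner. RefSeq places their starts 274 bases apart on opposite strands, with overlapping bodies, and the BCL10 window above holds 32 CG dinucleotides. The rise of BCL10-AS1 was at the edge of the test: it passed in 2 of 18 alternative settings, while the fall of BCL10 passed in 16 of 20.

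The other sense genes that fell did so beside antisense RNAs that did not pass. DSG2, a desmosomal cadherin, had 6.41 and 6.51 in LX2 CM272, against 7.66 and 7.73 in LX2 control, and fell by 1.24 (SE 0.15, limma adjusted p = 0.00331). DSG2-AS1 lay between 4.12 and 4.18 on all 4 LX2 arrays. HAS2, a hyaluronan synthase, had 7.04 and 7.72 in LX2 CM272, against 8.43 and 8.49 in LX2 control, and fell by 1.08 (SE 0.28, limma adjusted p = 0.0470). HAS2-AS1 had 4.57 and 4.78 in LX2 CM272, against 4.35 and 4.47 in LX2 control, a change of 0.27 (SE 0.16) that did not pass.

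**Figure D2:**
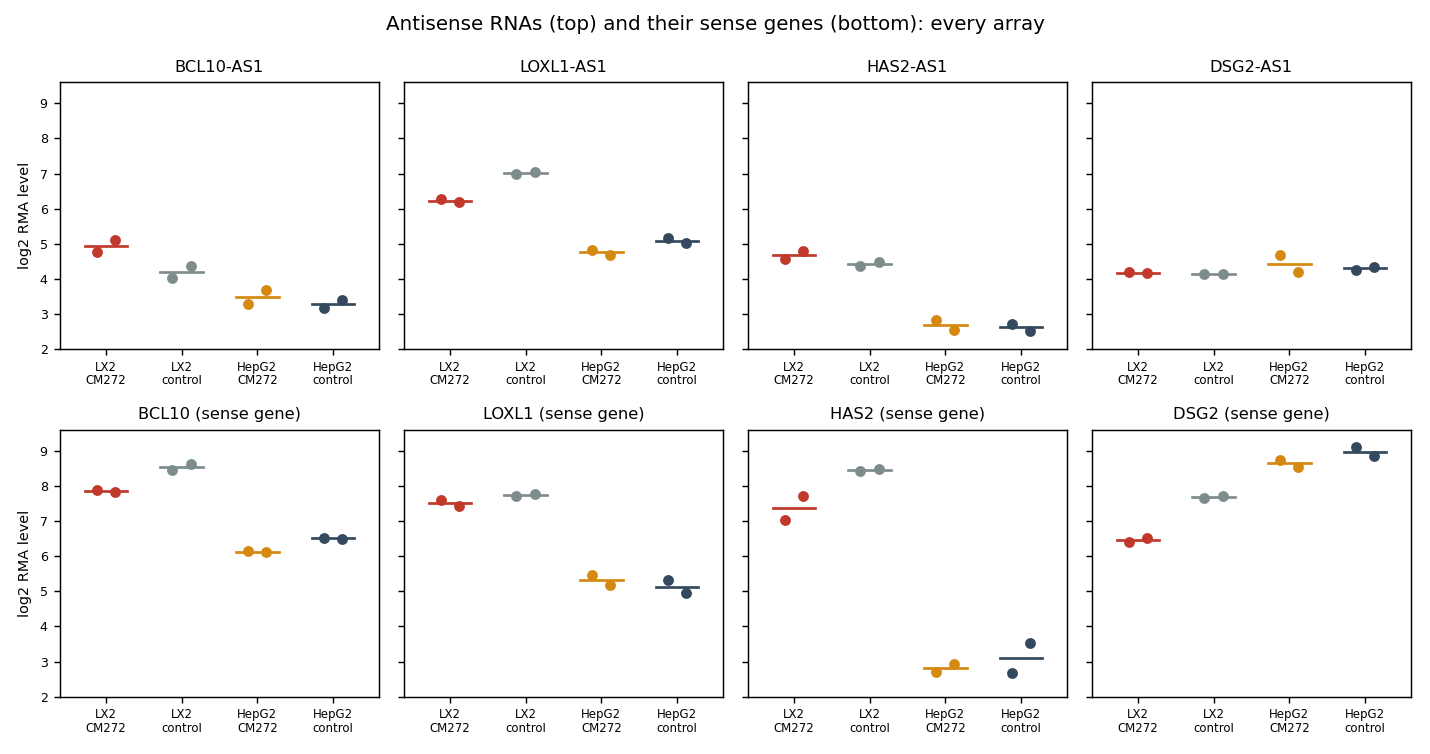
Log2 RMA level (y axis) of 4 antisense RNAs (top) and their sense genes (bottom) on each of the 8 arrays (points) with group means (bars), groups along the x axis. In LX2 CM272 against LX2 control BCL10-AS1 is higher while BCL10 is lower, and HAS2 and DSG2 are lower beside antisense RNAs that did not pass.

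Further falls among sense genes came from varied roles. SCOC, a coiled-coil protein tied to autophagy, fell by 0.89, SERTAD4 by 0.84, SAP30L, a Sin3 corepressor component, by 0.78, and TMPO, which encodes lamina-associated proteins, by 0.73. SPART, a lipid droplet protein, fell by 0.73, VPS13A, a lipid transfer protein, by 0.68, and STARD4, a sterol carrier, by 0.68. TMPO-AS1 stood at 6.69 and 6.76 in LX2 CM272, against 6.67 and 6.72 in LX2 control, while TMPO had 8.14 and 8.21 in LX2 CM272, against 8.85 and 8.97 in LX2 control. STXBP5, a regulator of vesicle fusion, fell by 0.63 and PCGF3, a Polycomb subunit, by 0.60, beside the antisense changes of 0.77 and -0.56 given above. The antisense change was positive in 15 of the 17 pairs whose sense gene passed, beside 129 of all 201 antisense RNAs with a tested sense gene (64.2%), and in 1 of the 17 it passed.

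The 4 sense genes that rose had antisense changes of -0.12 to 0.16, none past the test. CFAP418, a ciliary protein gene, had 6.03 and 6.15 in LX2 CM272, against 5.23 and 5.05 in LX2 control, and rose by 0.95 (SE 0.16, limma adjusted p = 0.0109), and CFAP418-AS1 changed by 0.15 (SE 0.24). UPK1A, a uroplakin gene, rose by 0.65, MKNK1, a kinase of the translation factor eIF4E, by 0.54, and ASMTL by 0.52. ASMTL-AS1 stayed within 6.30 to 6.45 on the 4 LX2 arrays, while ASMTL had 7.16 and 7.08 in LX2 CM272, against 6.62 and 6.58 in LX2 control. The sense counts also rest on single arrays. They shrank without either LX2 control array and grew without LX2 CM272 replicate 2, as did the counts over all genes.

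**Figure D3:**
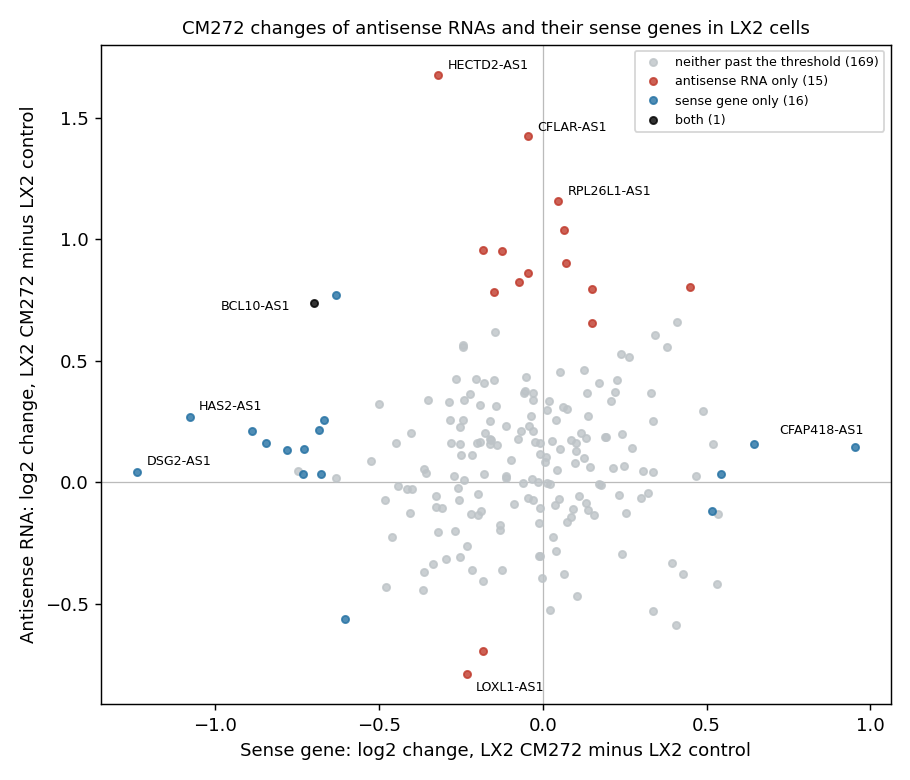
Log2 change in LX2 CM272 minus LX2 control of the antisense RNA (y axis) against its sense gene (x axis) for 201 pairs, coloured by which partner passed the test. In 15 pairs only the antisense RNA passed, with sense changes of -0.32 to 0.45, in 16 only the sense gene passed, and BCL10-AS1 with BCL10 is the only pair in which both passed.

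The same question in hepatocellular carcinoma cells was addressed by HepG2 CM272 against HepG2 control. In limma's fit 0 of the 326 antisense RNAs and 0 of the 199 sense genes passed, beside 0.00817% of all genes. At an unadjusted p under 0.05, 26 antisense RNAs were higher and 8 lower, and 8 sense genes were higher and 17 lower. Over all 12239 genes 583 were higher and 820 lower at that limit. The median antisense change was 0.04, against -0.02 over all genes. When each array was centred on its median, it was -0.0048, against -0.07 over all genes. The 21 antisense RNAs that rose in LX2 had HepG2 changes of -0.34 to 0.55 with a median of 0.07.

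The HepG2 values that came nearest are given without a call. BOK-AS1 had 5.46 and 5.92 in HepG2 CM272, against 4.63 and 5.06 in HepG2 control (change 0.85, SE 0.20, limma adjusted p = 0.227). Its sense gene BOK, a BCL2-family member, changed by 0.13. MED4-AS1 changed by 0.77 and PEG3-AS1, at an imprinted locus, by 0.58, with 6.45 and 6.53 in HepG2 CM272, against 5.98 and 5.84 in HepG2 control. NHSL1-AS1 had 6.18 and 5.86 in HepG2 CM272, against 6.79 and 6.96 in HepG2 control (change -0.86, SE 0.18, limma adjusted p = 0.227). BCAR3-AS1 changed by -0.57 and ZEB2-AS1 by -0.52.

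Whether the CM272 effect differed between the lines was tested as the HepG2 change minus the LX2 change. Of 326 antisense RNAs 3 passed, all with the larger rise in LX2, beside 1.18% of all genes (0.360% higher and 0.825% lower). At an unadjusted limma p under 0.05, 16 were higher and 34 lower, beside 1083 higher and 1070 lower of all 12239 genes. The difference was -2.15 for SLC7A11-AS1 (SE 0.27, limma adjusted p = 0.00868), -1.76 for HECTD2-AS1 (SE 0.29, limma adjusted p = 0.0282) and -1.28 for PAXBP1-AS1 (SE 0.22, limma adjusted p = 0.0319). PAXBP1-AS1 had 3.57 and 3.80 in HepG2 CM272, against 3.89 and 4.13 in HepG2 control, a change of -0.33. PARD6G-AS1 came next to the threshold, with a difference of -1.30 (limma adjusted p = 0.0509). For all 21 LX2 rises the difference was negative, which the choice of RNAs that rose in LX2 favours. SLC7A11-AS1 and HECTD2-AS1 were members only through LX2 CM272, and that choice also favours a difference. The calls passed in 15, 13 and 11 of 18 alternative settings for SLC7A11-AS1, HECTD2-AS1 and PAXBP1-AS1. Without LX2 control replicate 1, or without HepG2 control replicate 1, 0 were left, and 1 was left without replicate 2 of either control group or without either HepG2 CM272 array.

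Across the 326 members the LX2 and HepG2 changes had a Pearson r of 0.13 and a Spearman rho of 0.14. The lines have no array in common, but all points share the array platform and the probe sets. Of the 199 sense genes 0 passed in the difference. At an unadjusted limma p under 0.05, 17 of 199 were higher and 11 lower, beside 1083 and 1070 of all 12239 genes.

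**Figure D4:**
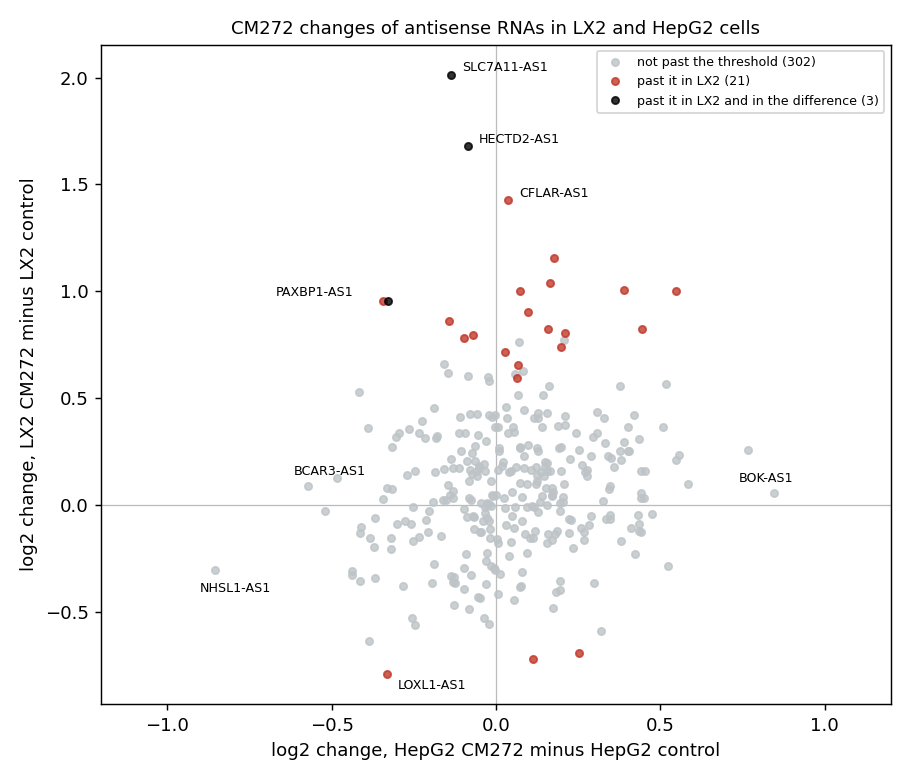
Log2 change with CM272 of 326 antisense RNAs in LX2 (y axis) against HepG2 (x axis), where black points also passed the test of the difference between the lines. The RNAs that rose in LX2 spread over both sides of 0 on the HepG2 axis, and SLC7A11-AS1 reaches 2.01 in LX2.

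How far the lines themselves differ in antisense RNAs was read from HepG2 control against LX2 control. Of 326 antisense RNAs 57 were higher and 112 lower in HepG2, against 17.7% higher and 40.5% lower among all genes, of which 58.1% passed. The median difference was -0.21 over the antisense RNAs and -0.27 over all genes. This split depends on scaling: quantile normalization over the 8 arrays gave 84 higher and 71 lower, and median centring gave 83 higher and 73 lower, with the median of all genes shifted by 0.26 and 0.24. Over all genes the same settings gave 3206 higher and 3573 lower of 12229, and 3088 higher and 3707 lower of 12233. For members bright in 1 line only, the choice favours a difference. Among the RNAs whose arrays are printed below, PEG3-AS1, LIN28B-AS1, DLEU7-AS1 and EGFR-AS1 were not bright in LX2 control. PAX8-AS1, POPDC1-AS1, HOXB-AS3 and ZEB2-AS1 were not bright in HepG2 control. Among the 202 bright in all 4 groups 35 were higher (17.3%) and 51 lower (25.2%). Of the 9664 genes bright in all 4 groups 17.7% were higher and 37.9% lower. Of the differences named below, those that were recomputed under the alternatives kept their sign in each of them.

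BCAR3-AS1 had the largest excess in HepG2, with 8.59 and 8.54 in HepG2 control, against 4.54 and 4.51 in LX2 control. The difference was 4.03 (SE 0.14, limma adjusted p = 1.72e-08). Its sense gene BCAR3, an adaptor of integrin signalling, went the other way, with 5.26 and 5.25 in HepG2 control, against 6.77 and 6.79 in LX2 control (difference -1.52, SE 0.14, limma adjusted p = 1.21e-05). Next came SSTR5-AS1, at a somatostatin receptor gene, with a difference of 2.62, while SSTR5 differed by -0.32 and did not pass. NHSL1-AS1 differed by 2.61 and NHSL1 by 3.87. PEG3-AS1 had 5.98 and 5.84 in HepG2 control, against 3.51 and 3.23 in LX2 control.

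In 3 further pairs both partners were higher in HepG2. LIN28B-AS1 had 5.60 and 5.63 in HepG2 control, against 3.56 and 3.67 in LX2 control (difference 2.0, SE 0.26). LIN28B, an inhibitor of let-7 processing that marks fetal and tumour tissue, had 8.94 and 8.74 in HepG2 control, against 2.20 and 2.33 in LX2 control (difference 6.58, SE 0.21). LBX2-AS1 differed by 2.04 beside 0.90 for the homeobox gene LBX2, and MCF2L-AS1 by 2.02 beside 1.30 for MCF2L. DLEU7-AS1, whose sense gene was not tested, had 4.20 and 4.25 in HepG2 control, against 2.21 and 2.16 in LX2 control. In each of these the HepG2 and LX2 arrays did not overlap.

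HIF1A-AS2, at the 3' end of the hypoxia factor gene HIF1A, had the largest deficit in HepG2, with 4.18 and 4.47 in HepG2 control, against 8.72 and 8.55 in LX2 control (difference -4.31, SE 0.29, limma adjusted p = 1.02e-06). PAX8-AS1 had 3.69 and 3.74 in HepG2 control, against 7.17 and 6.96 in LX2 control (difference -3.35, SE 0.15). PAX8, a transcription factor of thyroid and kidney development, had 4.54 and 4.74 in HepG2 control, against 5.14 and 5.16 in LX2 control, a difference of -0.51. ZNF667-AS1 differed by -2.85 and CDKN2B-AS1, at a cell cycle inhibitor locus, by -2.14. Neither of their sense genes was tested.

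In other pairs both partners were lower in HepG2. POPDC1-AS1 had 2.82 and 2.45 in HepG2 control, against 5.14 and 4.93 in LX2 control, and POPDC1, a membrane protein of the Popeye family, had 4.43 and 4.83 in HepG2 control, against 9.0 on both arrays of LX2 control. RASSF8-AS1 differed by -2.45 and RASSF8 by -2.43, and KIRREL3-AS2 by -2.55 and KIRREL3, a cell adhesion gene, by -2.01. GNAS-AS1, at an imprinted locus, differed by -2.28 and GNAS, the stimulatory G protein subunit, by -0.69.

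Across the 201 pairs the differences of the partners had a Pearson r of 0.41 and a Spearman rho of 0.37. In 65 pairs both partners passed: 10 were higher in both, 43 lower in both and 12 in opposite directions. Taken singly, the antisense RNA was higher in 35 and lower in 66 of the 201 pairs, and the sense gene in 37 and 90. The pair counts were not recomputed under the other scalings, which change the number of lower calls. Of the 12 opposite pairs 9 had the antisense RNA higher and the sense gene lower in HepG2. EGFR-AS1 was 1 of them, with 5.29 and 5.19 in HepG2 control, against 3.66 and 3.36 in LX2 control, while the growth factor receptor EGFR had 6.87 and 7.17 in HepG2 control, against 8.84 and 8.81 in LX2 control. A1BG-AS1 was the largest case of the other kind, with a difference of -1.10 beside 2.10 for the plasma protein gene A1BG. A1BG-AS1 was picked after its values were seen.

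Starts could be compared for 186 of the 201 pairs (92.5%). They were taken from the RefSeq windows and from the outer ends of gene records, and the smallest distance was kept. Where only 1 partner had a window, the other was assumed to lie on the opposite strand. Its start was then the end of its gene record. In 74 pairs the starts lay within 1000 bases of each other, and there the differences of the partners had r = 0.61 and rho = 0.50, with 21 pairs that passed in the same direction and 1 in opposite directions. In the 112 pairs with starts farther apart r was 0.22 and rho 0.21, with 29 pairs in the same direction and 10 in opposite directions. The same split for LX2 CM272 against LX2 control gave r = 0.0015 for the close starts and 0.05 for the others. The gene bodies overlapped in 52 of the 74 pairs and in 106 of the 112. Taken singly between the control groups, 16 antisense RNAs were higher and 20 lower in the 74 pairs, and 16 and 28 sense genes. In the 112 pairs the antisense RNA was higher in 16 and lower in 42, and the sense gene in 18 and 57. The limit of 1000 bases was chosen with these data known, and no test was made between the classes.

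**Figure D5:**
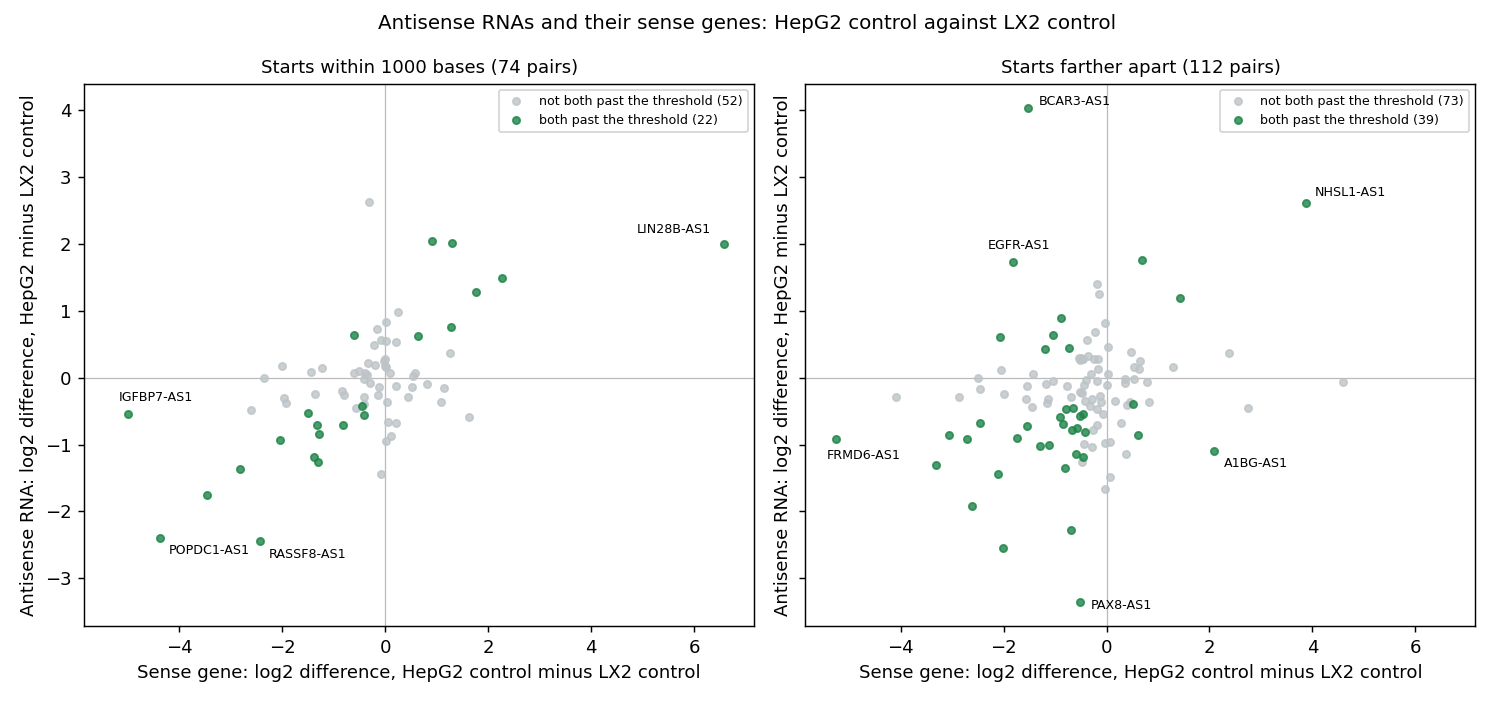
Log2 difference in HepG2 control minus LX2 control of the antisense RNA (y axis) against its sense gene (x axis), for 74 pairs whose RefSeq starts lie within 1000 bases (left) and 112 pairs with starts farther apart (right). BCAR3-AS1 and EGFR-AS1 lie opposite to their sense genes in the right panel, and LIN28B-AS1 and POPDC1-AS1 lie with theirs in the left panel.

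Antisense RNAs of lists drawn up from general knowledge filled in the picture. Some listed names do not end in -AS or -AS plus a number, so the rule could not take them. Of 18 names listed for HOX clusters 6 were antisense symbols on the array, and all 6 were members. With CM272 in LX2 0 of the 6 passed, with changes of -0.16 to 0.61, beside 3.79% higher and 4.63% lower of all genes. In HepG2 control against LX2 control 0 were higher and 4 lower, beside 17.7% higher and 40.5% lower of all genes. This count was not made under the other scalings. HOXB-AS3 had 4.10 and 3.85 in HepG2 control, against 5.01 and 5.01 in LX2 control (difference -1.03). HOXA11-AS differed by -0.65, HOXC13-AS by -0.73 and HOXA-AS3 by -0.54, while HOXA10-AS (-0.11) and HOXD-AS2 (0.08) did not pass. Of 21 names listed for imprinted loci 4 were antisense symbols on the array. The 3 members were GNAS-AS1, PEG3-AS1 and WT1-AS, with LX2 CM272 changes of -0.36 to 0.17. WT1-AS differed by -1.37 between the lines and WT1, a transcription factor of mesothelial and kidney development, by -2.82.

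Of 68 listed names of widely studied RNAs 32 were antisense symbols on the array, and 23 were members. In LX2 CM272 against LX2 control 0 rose and 1, LOXL1-AS1, fell, with a median of -0.04 over the 23. In HepG2 control against LX2 control 3 were higher and 14 lower, with a median of -0.68, beside 17.7% higher and 40.5% lower of all genes. Of these 17, quantile normalization over the 8 arrays left the same 3 higher and 9 lower past the threshold, and median centring left 3 higher and 10 lower. ZEB2-AS1 had 3.24 and 3.82 in HepG2 control, against 5.97 and 4.61 in LX2 control, and ZEB2, a repressor of epithelial genes, differed by -3.46. The 2 LX2 control arrays of ZEB2-AS1 differed by more than 1 from each other. HAS2-AS1 differed by -1.79, LOXL1-AS1 by -1.92, GAS6-AS1 by -1.30 and TGFB2-AS1 by -0.83. The sense genes HAS2 (-5.36), LOXL1 (-2.62) and GAS6 (-3.32), the last a ligand of TAM receptors, were also lower in HepG2. The 3 higher in HepG2 were LBX2-AS1, EGFR-AS1 and NPSR1-AS1, the last with a difference of 1.72. PXN-AS1 differed by -0.68, TMPO-AS1 by -0.70, PSMB8-AS1 by -0.68, THAP9-AS1 by -0.68, BACE1-AS by -0.55 and FOXD2-AS1 by -0.45. AFAP1-AS1 (-0.28), MCM3AP-AS1 (-0.02), SBF2-AS1 (-0.05), ZEB1-AS1 (-0.36), ST3GAL6-AS1 (-0.54) and ZNF674-AS1 (-0.13) did not pass, while AFAP1, an actin filament protein, differed by -4.10.

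The targets of CM272 were read in the same arrays. EHMT2 changed by 0.02 in LX2 and by 0.37 in HepG2, and DNMT1 by 0.24 in LX2 and by -0.05 in HepG2, none past the test. EHMT2 shares its values with 4 other probe sets. Among the members PSMB8-AS1 shared its values with other probe sets, and 0 members shared values with their sense gene.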

How the data were processed

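RNA of 8 cell line samples was hybridised to Affymetrix whole-transcript arrays after amplification of 300 ng with the Ambion kit, per the labels' protocols. The deposited table holds log2 values that the authors made with RMA, which the submitters' processing notes name without further settings, and they were used as deposited. The array medians (4.19 to 4.54) and distributions still differ between the lines, so differences between lines depend on scaling. The folds of dim genes are compressed. Arrays give no counts, so the number of arrays limits the precision. The array's genome build is not given in the sources used here. Of 48416 probe sets 16098 had 1 symbol in the platform annotation, 0 had several and 32318 had none. For each symbol the probe set with the highest mean was kept, and genes at log2 4 or below on any array of every group were left out. A single linear model with 1 mean for each group was fitted in limma 3.58.1 under R 4.3.3 (4 residual and 5.47 prior degrees of freedom), two-sided, with Benjamini-Hochberg adjustment over 12239 genes. An exact permutation test of 2 arrays against 2 cannot go below p = 0.333, so it was not used. The fit was tested on simulated data.

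The members, the lists, the distance between starts and the tests were chosen with earlier results of these data known. Named were the antisense RNAs past the threshold (up to 12 each way with CM272, 8 each way between lines), the 3 largest each way that missed it with CM272, the measured members of the 3 lists, the pairs with a called sense gene (10 each way), the sense genes of all these, and 3 RNAs on each side of the brightness threshold. Start sequences came from RefSeq (GRCh38.p14) by symbol, and 251 of 326 members had a window. CG counts were not compared over the members. Same-numbered arrays did not deviate together (correlations of -0.05 to 0.08), so no pairing was assumed. Figures were drawn with matplotlib 3.10.9.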

Additional observations from a re-analysis of the deposited data

Results flagged for a closer look

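The CM272 effect differed between the lines for 3 antisense RNAs by a test of the difference itself (the HepG2 change minus the LX2 change, limma with Benjamini-Hochberg adjustment). The difference was -2.15 for SLC7A11-AS1, -1.76 for HECTD2-AS1 and -1.28 for PAXBP1-AS1. SLC7A11-AS1 changed by -0.14 in HepG2 against 2.01 in LX2, HECTD2-AS1 by -0.08 against 1.68 and PAXBP1-AS1 by -0.33 against 0.95. SLC7A11-AS1 and HECTD2-AS1 entered only through LX2 CM272, the group where they were high, and that choice favours such a difference. Of the 3 calls 0 were left without replicate 1 of either control group, and 1 was left without replicate 2 of either control group or without either HepG2 CM272 array. With 2 arrays per group no single array could be set against its group.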

How the results depend on the processing

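Up to 20 alternatives were run for each result, and fewer where a setting gave no value (an RNA under a stricter filter, or a comparison of the lines with each line fitted alone). No named change that was recomputed turned its direction. Of the 24 LX2 calls 2 (SLC7A11-AS1 and HECTD2-AS1) passed in every alternative with a value, 14 (those 2 included) in at least 15 and 8 in fewer than 10. The count of 21 antisense RNAs higher in LX2 CM272 became 7 with a brightness filter at log2 6, 13 with all probe sets tested, 7 with array weights and 7 with each line fitted alone, and it ran from 2 to 28 when 1 array was left out. The 3 lower became 1 with array weights and 0 with each line fitted alone, and ran from 0 to 13. In HepG2 the counts stayed at 0 under every alternative run. For the difference between lines a filter at log2 5 gave 1 higher and 5 lower, and an intensity trend in limma's variance gave 5 lower. Leaving out 1 array gave 0 to 1 higher and 0 to 9 lower. Between the control groups, a filter at log2 6 gave 13 higher and 27 lower, a filter at log2 5 gave 70 lower, and quantile normalization over the 8 arrays and median centring gave 71 and 73 lower. Leaving out 1 array gave 42 to 63 higher and 87 to 129 lower. Stricter filters test fewer RNAs, and the cause of the other shifts was not tested. The replicate block gave 22 higher and 4 lower in LX2, 20 and 3 of them among the calls above, and 3 lower in the difference. No pair of groups had a correlation over 0.1 between the deviations of same-numbered arrays. The labels do not say whether equal numbers mark a shared day. The median antisense change in LX2 stayed positive, between 0.02 and 0.15. Between the lines it turned to 0.07 after quantile normalization over the 8 arrays, beside -0.01 over all genes. After median centring it was 0.06, beside -0.04 over all genes. Levels near the background of the array limit the folds of the dim RNAs.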
